A study of Mus musculus with 2 samples.

Results

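The Cd4-positive Timd4-negative macrophages (Cd4+ Timd4- cells) of the mouse small intestine were chosen by their transcript counts in 2 single-cell libraries. Transcripts were counted as unique molecular identifiers (UMIs). Of the cells in which 200 or more genes were detected and no more than 10% of UMIs were mitochondrial, those were gated as macrophages in which C1qa, C1qb and C1qc together made up at least 0.5% of UMIs and no Cd3e, Cd3d or Cd3g UMI was present. A gated cell belonged to the population when it held at least 2 Cd4 UMIs and no Timd4 UMI. By this rule 472 of 4825 gated cells, out of 5828 deposited cells, were Cd4+ Timd4-: 295 of 2624 in the wild-type library and 177 of 2201 in the Ccr2-knockout library.

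CD4 is best known as the coreceptor of helper T cells, and macrophages of the mouse gut also carry it. Tim-4, the product of Timd4, binds phosphatidylserine on dying cells. In the mouse intestine the pair of proteins has been used to divide macrophages by how fast blood monocytes replace them: cells with neither turn over quickly, cells with CD4 alone more slowly, and cells with both are held to be long-lived. Ccr2 encodes the chemokine receptor by which monocytes leave the bone marrow, so Ccr2 knockout animals have few circulating monocytes to supply the gut.

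Intestinal macrophages were sorted as live CD45+ cells that lacked CD3, TCRb, B220, SiglecF, Ly6C and Ly6G and carried CD11b, MHC class II and CD64. Wild-type cells came from male C57BL/6J mice from the breeder Janvier, and Ccr2-/- cells from JAX strain 004999 bred in-house, for which sex is not given in the labels. Age is not given for either group, and 3 to 4 intestines were combined for each sort. With 1 library per genotype there was no biological replicate, no test was possible, and genotype cannot be told apart from the animals' source, the library and its depth. The wild-type sample was run over 2 lanes, which are technical repeats of 1 cell suspension. Intervals are exact 95% Poisson intervals for counts and Clopper-Pearson intervals for shares, and they cover no more than the error of counting.

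In total 20766579 UMIs were counted in wild type and 7506405 in the knockout. Median depth of the Cd4+ Timd4- cells was 6722 UMIs in wild type (range 1564 to 23825) and 3079 in the knockout (range 764 to 8162), so the knockout cells were read at lower depth. As a check of the labels, Ccr2 (the deleted gene) had 265 UMIs in the wild-type Cd4+ Timd4- cells and 0 in those of the knockout, where a count of 0 allows up to 3 counts. Depth-matched knockout cells with neither Cd4 nor Timd4, and those with both, had 2 Ccr2 UMIs per group. The lanes shared 5 barcode sequences and the libraries 6, and 3 of the Cd4+ Timd4- cells carried a shared one.

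Since Cd4, Timd4 and C1q chose the cells, their values are a description. Of the wild-type Cd4+ Timd4- cells 175 held 2 Cd4 UMIs, 67 held 3, 30 held 4, 15 held 5, 4 held 6 and 4 held 7. In the knockout 122 held 2, 41 held 3, 11 held 4 and 3 held 5. Most cells therefore sat at the lower edge of the rule. Just outside it were the cells with 1 Cd4 UMI and no Timd4 UMI, 403 in wild type and 363 in the knockout. So were the cells with at least 2 Cd4 UMIs and exactly 1 Timd4 UMI, 75 and 83. On the C1q side, 20 wild-type and 22 knockout Cd4+ Timd4- cells lay between 0.5% and 0.6% of UMIs, and 13 and 5 cells that met the Cd4 and Timd4 rule lay between 0.4% and 0.5%. Cd4 lies on chromosome 6 from 124864692 to 124888221 on the minus strand and Timd4 on chromosome 11 from 46810800 to 46844332 on the plus strand (GRCm38, GENCODE M21).

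The share of gated cells that were Cd4+ Timd4- was 11.2% in wild type (10.1% to 12.5%) and 8.04% in the knockout (6.94% to 9.26%). The wild-type lanes gave 10.7% and 12.5%. This order depended on depth. When every cell was thinned to 1500 UMIs, the rule was met by 55 of 2613 in wild type (2.10%, interval 1.59% to 2.73%) and by 82 of 1715 in the knockout (4.78%, interval 3.82% to 5.90%), with 11 and 486 shallower cells left out, so the knockout share was then the higher of the pair. As background, 0 of 23 wild-type and 0 of 22 knockout cells with B or plasma cell transcripts met the rule, which allows shares of up to 13.04% and 13.6% when 3 cells are taken as the limit for a count of 0. Their median depths were 8757 and 2890 UMIs. Any Cd4 UMI was found in 17.4% and 9.09% of those cells, against 36.9% and 41.0% of gated macrophages at median depths of 6359.5 and 2548 UMIs.

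A cell can also lack a Timd4 UMI because few of its transcripts were read. Among gated cells with at least 2 Cd4 UMIs, Timd4 was detected in 26.0% of the wild-type cells below the median depth of 7399.5 UMIs and in 39.3% of those at or above it. In the knockout the shares were 36.6% and 53.7% around a median of 3380 UMIs. Timd4 detection thus rose with depth in both libraries, and some cells counted as Timd4-negative may have carried unread Timd4 transcripts. How many was not tested.

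The macrophage label was checked on genes that the gate did not use. Csf1r, the receptor for the main macrophage growth factor, had a UMI in 99.0% of wild-type and 97.7% of knockout Cd4+ Timd4- cells. Cx3cr1, the fractalkine receptor typical of intestinal macrophages, was detected in 93.2% and 88.1%, and the mannose receptor gene Mrc1 in 86.1% and 71.2%. Other macrophage genes were detected less often, Adgre1 in 84.1% and 66.7% and Mertk in 20.7% and 33.3%. Depth-matched cells with neither Cd4 nor Timd4 had Csf1r in 92.9% and 93.8% and Cx3cr1 in 90.2% and 87.6%. Transcripts of T cells, the other source of Cd4, were near 0: the 18 T cell genes in the files summed to 18.4 counts per 1000000 UMIs (CPM) in wild type and 17.5 CPM in the knockout, with 15 and 14 of the 18 genes at 0, among them Lat, Cd247, Thy1, Bcl11b, Tcf7, Cd8a and Themis. The T cell receptor genes Trac, Trbc1, Trbc2 and Trdc of that list were not in the files. The gate had left out cells with a Cd3 UMI, so a low sum was partly fixed. In depth-matched cells without Cd4 the same list summed to 15.5 and 14.0 CPM. Cd6 led the list in the Cd4+ Timd4- cells, at 12.7 and 6.99 CPM.

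Transcripts of other cells were also counted. The 17 epithelial genes summed to 283 CPM in wild type and 147 CPM in the knockout, against 235 and 194 CPM in matched cells without Cd4, with Krt18, Cdh1, Muc2 and Olfm4 at 0. The 6 erythroid genes summed to 13.7 CPM in wild type and 435 CPM in the knockout, against 9.89 and 413 CPM. The erythroid difference thus ran between the libraries and not between the kinds of macrophage within them. The 10 endothelial genes summed to 85.9 and 194 CPM, against 52.3 and 128 CPM, with Pecam1 the leading gene and Cldn5, Emcn and Plvap at 0. The 9 B and plasma cell genes in the files summed to 396 and 435 CPM, against 271 and 343 CPM, with Xbp1 leading and Ms4a1 and Pax5 at 0. The immunoglobulin genes Igha, Ighm, Igkc and Iglc2 of that list were not in the files. The 16 dendritic cell genes summed to 341 and 288 CPM, against 361 and 322 CPM, with Batf3 leading and Flt3, Itgae and Ccr7 at 0. The part of any of these transcripts in the results was not tested.

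The first question was how the Cd4+ Timd4- cells differed from macrophages that held neither Cd4 nor Timd4 UMIs (double-negative cells). Each Cd4+ Timd4- cell was paired with a double-negative cell of the same library and lane within 0.1 log2 units of its UMI total, which gave 295 pairs in wild type (median 6722 and 6708 UMIs) and 177 in the knockout (3079 and 3075). Counts were summed per group and scaled to CPM, and the ratio is given as log2 with 1 CPM added to both sides. A gene with at least 50 UMIs in both libraries is called higher or lower when it differed at least 1.5-fold in the same direction in wild type and knockout.

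By the smaller ratio of the libraries, Gas1, Gpx3, Wnt4 and H2-M2 were the genes most raised in the Cd4+ Timd4- cells, and Alox5ap, Lgals1, Crip1 and Tmsb10 those most lowered. Of 3143 genes measured, 75 were higher (2.39%) and 30 lower (0.955%) in both libraries. The median log2 ratio of the 75 was 0.78 in wild type and 0.79 in the knockout. That of the 30 was -0.85 and -0.86, against 0.07 and 0.09 over all genes. Taken alone, wild type had 193 genes higher and 44 lower, and the shallower knockout library 315 and 181.

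**Figure D1:**
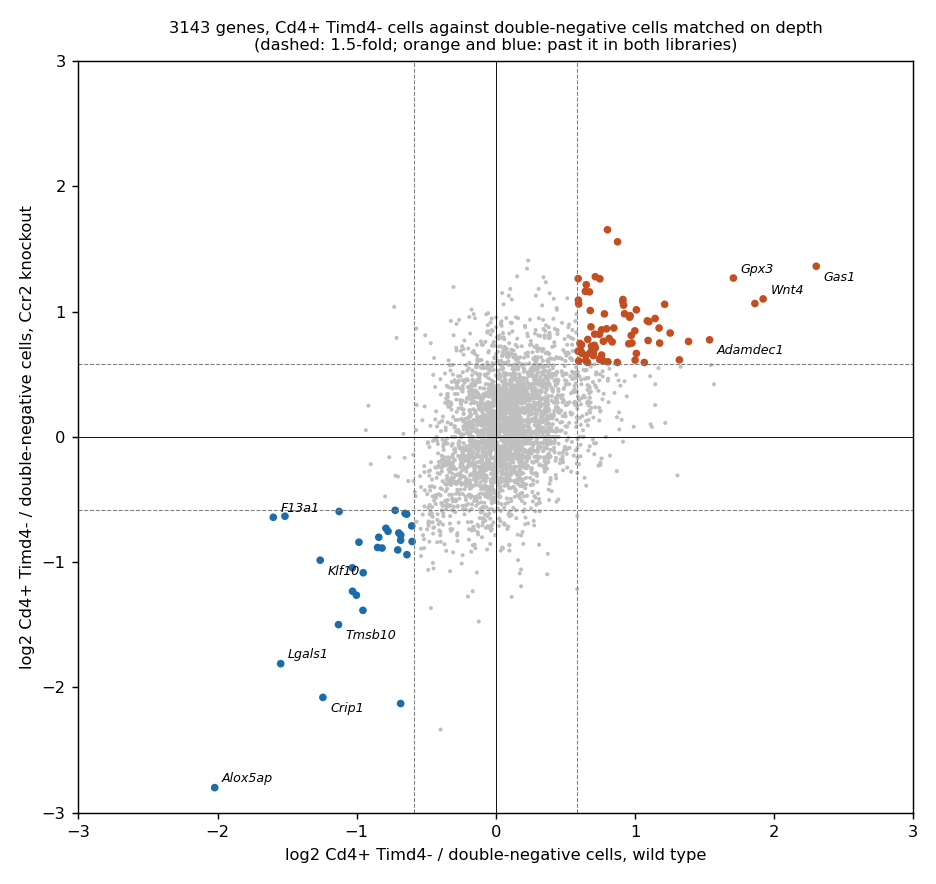
Each point is 1 of 3143 genes, with the log2 ratio of Cd4+ Timd4- to double-negative cells in wild type (x axis) and in the Ccr2 knockout (y axis). The 75 orange genes were at least 1.5-fold higher and the 30 blue genes at least 1.5-fold lower in both libraries, with Gas1 at the upper right and Alox5ap at the lower left.

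Among the genes for surface and signalling proteins, Gas1 led. It encodes a membrane-anchored growth arrest protein that binds Hedgehog ligands and lies on chromosome 13 from 60174405 to 60177365. Its level in the Cd4+ Timd4- cells was 47.9 CPM in wild-type lane 1, 41.8 CPM in lane 2 and 105 CPM in the knockout, against 8.70, 8.07 and 40.2 CPM in the double-negative cells. Gas1 was thus higher in both lanes and in the knockout, which its choice by rank largely fixes. The log2 ratio was 2.30 in wild type (1.70 to 3.25) and 1.36 in the knockout (0.67 to 2.14). Gas1 was seen in few cells: 20.3% of the Cd4+ Timd4- and 4.75% of the double-negative cells of wild type, and 24.9% and 10.7% of those of the knockout.

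Wnt4, a secreted Wnt ligand (chromosome 4, 137277489 to 137299726), stood at 234, 201 and 346 CPM in lane 1, lane 2 and the knockout, against 52.9, 67.2 and 161 CPM in double-negative cells. The log2 ratios were 1.92 in wild type and 1.10 in the knockout. The Wnt4 level of the Cd4+ Timd4- cells was thus above that of the double-negative cells in every lane and library, which its choice by rank largely fixes. The level in knockout double-negative cells was itself 161 CPM against 57.9 CPM in those of wild type, and the ratio was smaller in the knockout. Depth was not matched between the libraries here. In Cd4+ Timd4- cells matched on depth between the libraries, Wnt4 had 345 CPM in the knockout and 342 CPM in wild type.

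Gpx3, the secreted glutathione peroxidase (chromosome 11, 54902453 to 54910377), had 123, 170 and 220 CPM, against 44.2, 37.7 and 90.9 CPM in double-negative cells, with log2 ratios of 1.71 and 1.27. H2-M2, a nonclassical MHC class I gene (chromosome 17, 37480851 to 37483552), had 82.0, 60.7 and 136 CPM, against 21.0, 17.5 and 64.7 CPM, with log2 ratios of 1.86 and 1.06. As with Wnt4, both genes were higher in each lane and library, which their choice by rank largely fixes. The ratio was larger in wild type, with no matching of depth between the libraries.

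The other genes named by rank were higher by similar amounts in both genotypes. Olfml3, which encodes a secreted matrix scaffold protein, had log2 ratios of 1.21 and 1.06, and Ecm1, a secreted matrix glycoprotein, 0.97 and 0.97. Kynu, kynureninase of the tryptophan breakdown pathway, had 1.01 and 1.01. Tlr12, an endosomal receptor for parasite profilin, had 0.96 and 0.95, and the adhesion receptor Adgrl3 1.15 and 0.94. Acp5, the lysosomal tartrate-resistant acid phosphatase, was the most abundant of the 10: 1025, 1172 and 748 CPM in lane 1, lane 2 and the knockout, against 494, 527 and 393 CPM in double-negative cells. Acp5 was detected in 95.3% of wild-type Cd4+ Timd4- cells against 73.9% of their partners, and in 73.4% against 46.3% in the knockout. It is the gene among the 10 seen in the largest share of these cells.

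**Figure D2:**
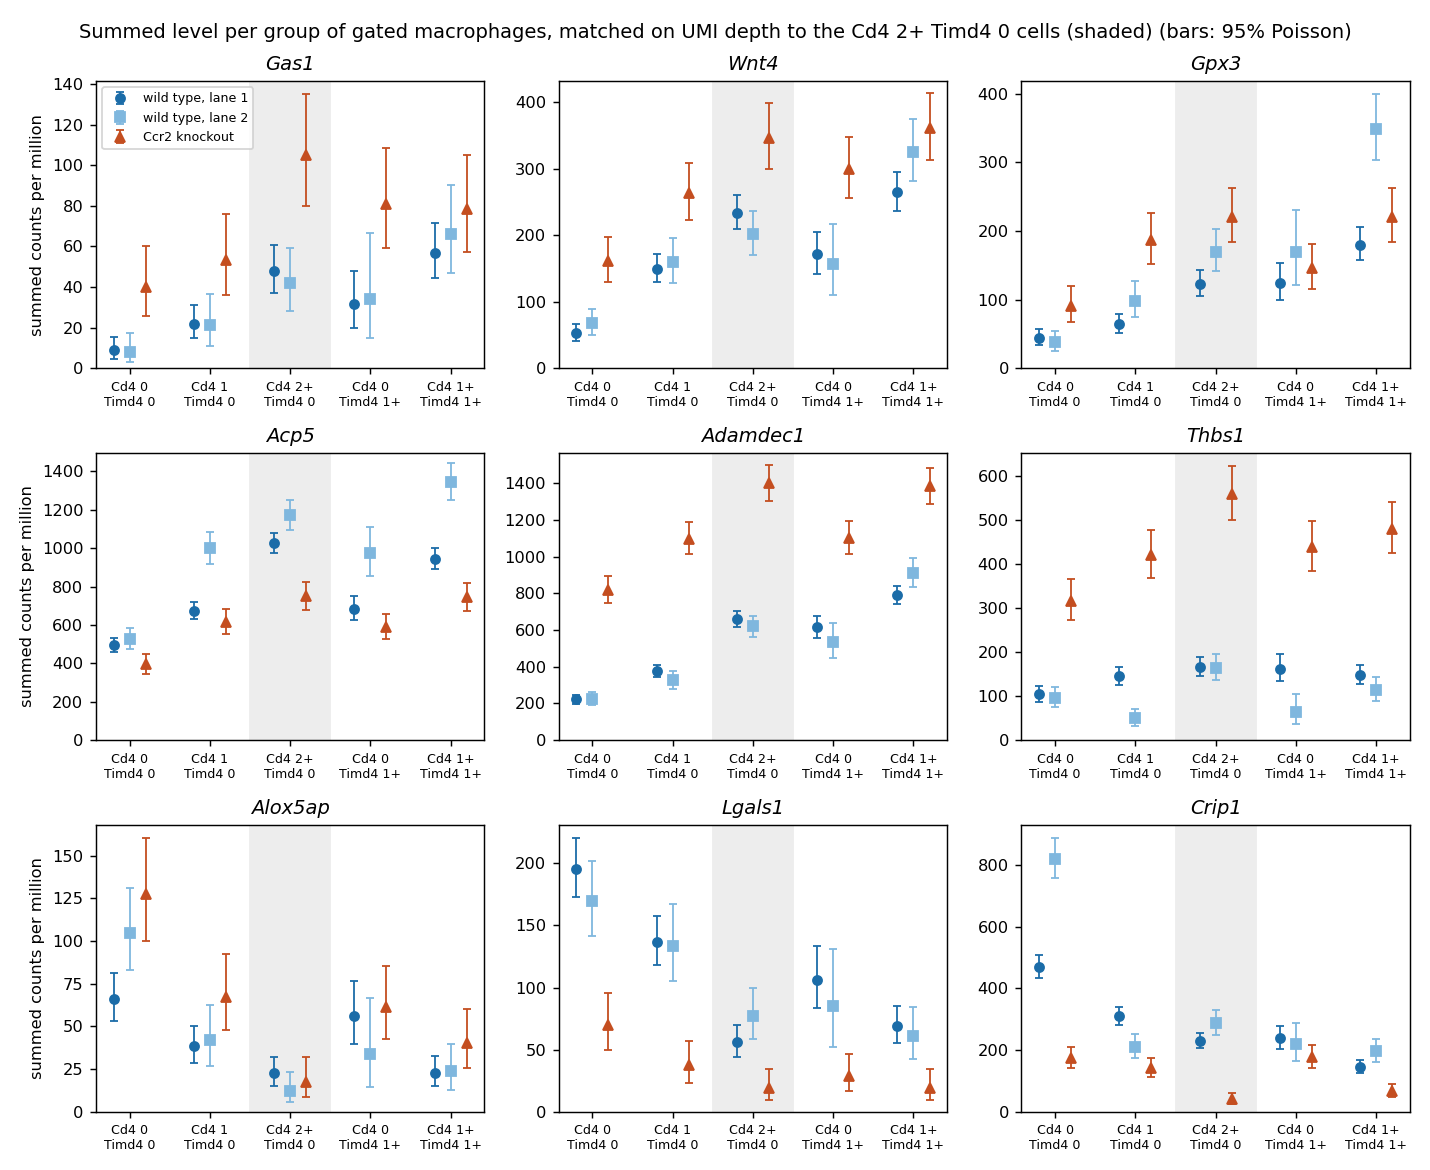
Summed CPM (y axis) of 9 genes in 5 kinds of gated macrophage by Cd4 and Timd4 UMIs (x axis), for wild-type lane 1, wild-type lane 2 and the knockout, each kind matched on UMI depth to the Cd4+ Timd4- cells (shaded) and bars giving 95% Poisson intervals. Gas1, Wnt4, Gpx3, Acp5 and Adamdec1 are higher and Alox5ap, Lgals1 and Crip1 lower in the shaded cells than in the cells without Cd4 and Timd4 at the left.

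Of the gene lists, growth and matrix factors stood out by count. Of 12 measured members of that list 6 were higher (Adamdec1, Pgf, Thbs1, Mmp9, Mmp14 and Tnfaip2) and 1 was lower (Timp2). Over all genes 2.39% were higher and 0.955% lower. The list medians were 0.69 in wild type and 0.51 in the knockout. Adamdec1, a secreted metalloprotease of gut macrophages, had 660, 619 and 1400 CPM in lane 1, lane 2 and the knockout, against 221, 223 and 818 CPM in double-negative cells (log2 1.54 and 0.77). Pgf, placental growth factor, had log2 ratios of 1.09 and 0.77, and the matrix glycoprotein gene Thbs1 0.71 and 0.82. Of the matrix-degrading proteases, Mmp9 had 0.70 and 0.72 and Mmp14 0.81 and 0.60. Timp2, an inhibitor of such proteases, went the other way at -0.95 and -1.38. The list was drawn up with earlier results of these data known, so its count is a description.

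The 2 higher genes among 21 measured lysosome and cathepsin genes were Acp5 and Npl, a sialic acid lyase, at log2 1.18 and 0.75. Of all genes measured 2.39% were higher. Smaller differences ran the same way across that list: 18 of 21 were above 0 in both libraries, where 41.8% of all genes measured were, with medians of 0.32 and 0.24 beside 0.07 and 0.09 over all genes. Lgmn, the protease legumain, had 0.50 and 0.56, and Ctsb, cathepsin B, 0.48 and 0.30, neither past 1.5-fold in both libraries.

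Cd274, which encodes the checkpoint ligand PD-L1, was the 1 higher gene of 8 measured costimulation and checkpoint genes, at 0.75 and 0.63. The share of all genes that were higher was 2.39%. Lag3, a CD4-like receptor for MHC class II, was also among the 75, at 74.1 against 43.3 CPM in wild type (0.76) and 57.7 against 31.5 CPM in the knockout (0.85). Pecam1, an adhesion molecule shared by leukocytes and endothelium, had 0.91 and 1.08. Of 12 measured partners of CD4 signalling, the tetraspanin gene Cd9 was higher (0.65 and 0.61) and none was lower. Lag3 and Pecam1 are named here after their values were seen.

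On the lower side, Alox5ap differed most. It encodes the protein that presents arachidonic acid to 5-lipoxygenase for leukotriene synthesis (chromosome 5, 149264767 to 149288153). Its level was 22.5 CPM in wild-type lane 1, 12.1 CPM in lane 2 and 17.5 CPM in the knockout, against 66.0, 105 and 128 CPM in double-negative cells. The log2 ratio was -2.02 in wild type (-2.61 to -1.57) and -2.80 in the knockout (-3.99 to -1.91), on 10 UMIs in the knockout Cd4+ Timd4- cells. Alox5ap was detected in 7.46% against 24.7% of cells in wild type and in 5.65% against 23.2% in the knockout.

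Lgals1, galectin-1, had 55.9, 76.8 and 19.2 CPM in the Cd4+ Timd4- cells of lane 1, lane 2 and the knockout, against 196, 169 and 69.9 CPM. Crip1, a small LIM protein of the cytoskeleton, had 230, 287 and 40.2 CPM, against 471, 820 and 173 CPM. Tmsb10, the actin-binding thymosin, had log2 ratios of -1.13 and -1.50, Vim, vimentin, -1.03 and -1.05, and the membrane protein gene Emp3 -1.002 and -1.26. These 5 genes were lower in both lanes and in the knockout, which their choice by rank largely fixes. Lyl1, a transcription factor of blood progenitors, had -1.03 and -1.23, the TGF-beta induced factor Klf10 -1.26 and -0.98, and Arl5c -0.95 and -1.08, all from fewer UMIs.

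Of 13 measured resident and scavenger receptor genes, 3 were lower and 1 (Cd9) was higher, where 0.955% and 2.39% of all genes were. The lower ones were Cd163, the haemoglobin scavenger receptor (-0.84 and -0.80), Cd36, the fatty acid and oxidised lipid receptor (-1.13 and -0.60), and F13a1, coagulation factor XIII (-1.60 and -0.64). Cd163 was detected in 10.5% against 10.8% of cells in wild type and in 14.7% against 22.6% in the knockout. Mrc1 of the same list did not pass, at 0.09 and -0.11. The list medians had opposite signs, 0.12 in wild type and -0.11 in the knockout. Ccl6, a chemokine, was the 1 lower gene of 16 inflammatory genes, at -1.52 and -0.63. The medians of the inflammatory list were -0.07 in wild type and -0.55 in the knockout. Socs3, the inhibitor of cytokine signalling, was the 1 lower gene of 14 measured interleukin-10 and TGF-beta genes, at -0.64 and -0.94. The 10 measured interferon response genes had medians of -0.10 and 0.50, with none past 1.5-fold in both libraries in the same direction.

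None of 7 measured MHC class II genes, which serve antigen presentation to CD4 T cells, passed 1.5-fold, and their medians were -0.01 and -0.02. H2-Ab1 had 14414 CPM in wild-type Cd4+ Timd4- cells against 14091 CPM in double-negative cells, and 7522 against 7315 CPM in the knockout. Genes of apoptotic cell uptake (12 measured, medians 0.27 and 0.17), chemokine receptors (12, medians 0.22 and 0.12), macrophage transcription factors (19, medians 0.12 and 0.05), immediate-early genes (19, medians -0.01 and -0.09) and core macrophage genes (12, medians 0.22 and -0.04) also had no member past 1.5-fold in both libraries. Over all genes 2.39% were higher and 0.955% lower, so a count of 0 in lists of this size says little. In the core list Csf1r was higher past 1.5-fold in wild type alone, at 0.67 and 0.41. In the monocyte-linked list 7 of 28 genes were measured and Vim alone passed.

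**Figure D3:**
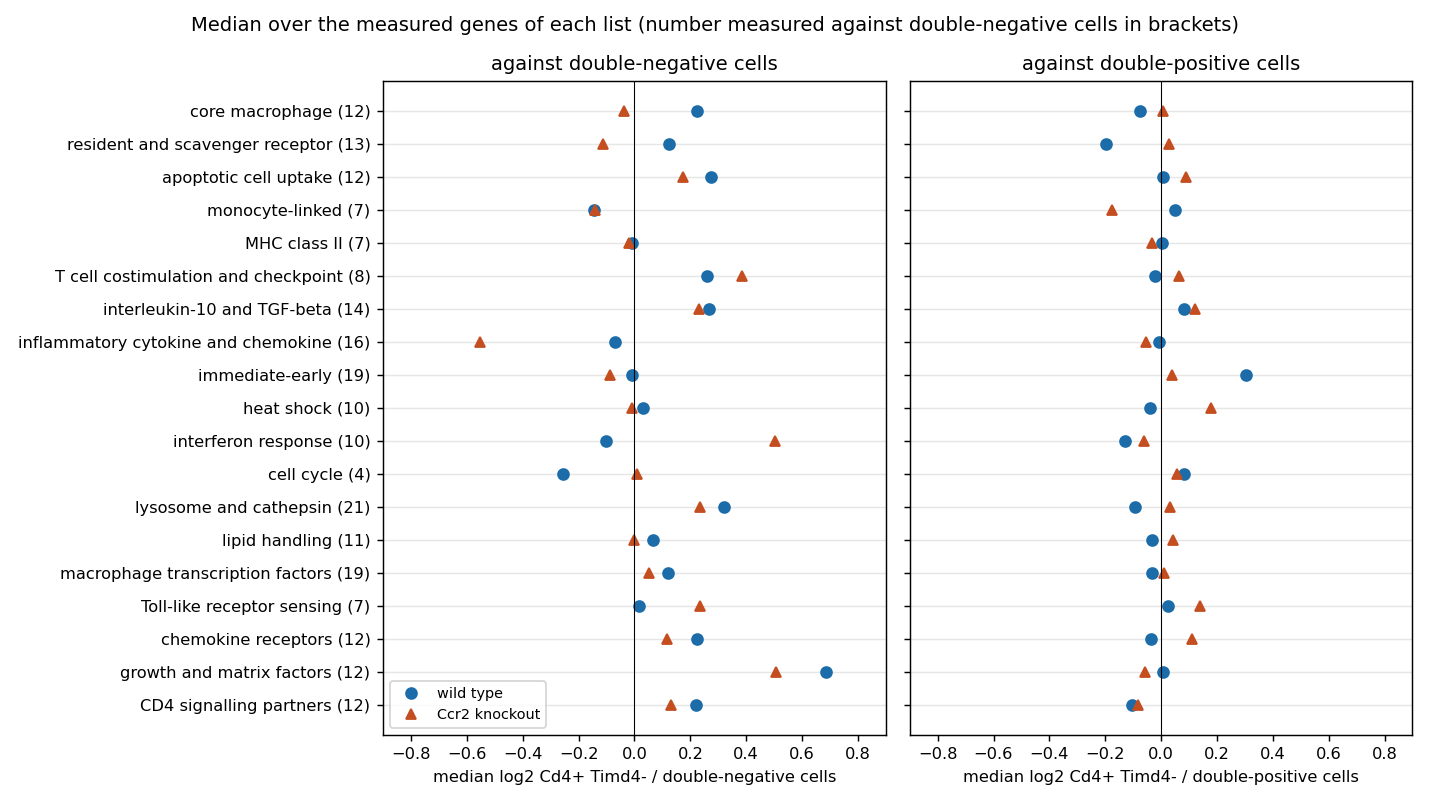
Median log2 ratio (x axis) over the measured genes of each of 19 lists (y axis), for Cd4+ Timd4- against double-negative cells (left) and against double-positive cells (right), wild type as circles and knockout as triangles. Growth and matrix factors have the highest medians at the left, 0.69 and 0.51, and 0.01 and -0.06 at the right.

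Ribosomal protein genes moved with this comparison. The 82 genes took 16.9% of the UMIs of the Cd4+ Timd4- cells against 21.0% in double-negative cells of wild type, and 10.8% against 13.6% in the knockout, and 80 of the 82 were lower in both libraries, 1 of them past 1.5-fold. Their share lowers the CPM of all other genes in the double-negative cells, and with a scaling by the median of gene ratios 52 genes were higher and 33 lower in place of 75 and 30. The part of ribosomal content in the differences was not tested further.

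Monocyte transcripts moved with the comparison too. A Ccr2 or Plac8 UMI was found in 39.7% of wild-type Cd4+ Timd4- cells (34.0% to 45.5%). In wild-type double-negative cells the share was 57.6% (51.8% to 63.3%). In the knockout the shares were 4.52% (1.97% to 8.71%) and 9.04% (5.26% to 14.3%), with intervals that overlapped. Ccr2 is deleted there, so those shares rest almost wholly on Plac8. Ccr2 itself was at 125 CPM in wild-type Cd4+ Timd4- cells, 447 CPM in double-negative cells and 47.9 CPM in cells with both Cd4 and Timd4. When all cells with a UMI of either gene were left out, 44 genes were higher and 33 lower, 32 and 16 of them among the 75 and 30. Gas1 then had log2 ratios of 1.39 and 1.25, Wnt4 1.24 and 1.07 and Alox5ap -2.75 and -2.76. Of the 20 genes named by rank, Tlr12 (0.47 in wild type) and Arl5c (-0.04 in wild type) no longer passed 1.5-fold. Lgals1 (-2.19 and -1.58) and Klf10 (-1.73 and -0.80) did, but fell under the minimum of 50 UMIs.

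How firm the single genes are differed. Over 17 alternative settings, Gpx3 and Wnt4 passed 1.5-fold in both libraries in every one, Acp5 and Adamdec1 in 16, H2-M2, Npl and Pgf in 15, Gas1 and Thbs1 in 13, and Tmsb10, Crip1 and Alox5ap in 16, 15 and 14. In the 4 settings that Gas1 did not pass it was under the minimum of UMIs. Mmp9 and Mmp14 passed in 9, Tnfaip2, Cd274 and Lag3 in 8 and Cd9 in 7. Of the lower scavenger receptor genes, Cd36 passed in 10, Cd163 in 9 and F13a1 in 8. Lag3 did not pass without the cells holding T cell transcripts. Over the 17 settings it was above 0 in both libraries in every one and under the minimum of UMIs in 5. Dnajb1, a heat shock cochaperone counted among the 75, passed in 4. Of the 75 higher genes 63 were above 0 in both libraries in every setting, and of the 30 lower genes 27 were below 0. With no pairing, when each group's cells were all used, 40 of the 75 and 20 of the 30 still passed.

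The Cd4 count within Timd4-negative cells went with these genes. The 10 genes named as higher summed to 1055 CPM in wild-type cells with no Cd4 UMI, 1672 CPM with 1, 2250 CPM with 2 and 2597 CPM with 3 or more. In the knockout the sums were 1400, 1958, 2592 and 2510 CPM, so that the last step seen in wild type was absent and the intervals of the last pair overlapped. The 10 lower genes summed to 2509, 1642, 1282 and 1041 CPM in wild type and 992, 659, 415 and 444 CPM in the knockout. Depth was not matched here: the median was 6394, 5923, 6077 and 7896.5 UMIs in wild type and 2045, 2294, 2980 and 3359 UMIs in the knockout, in the same order of Cd4 counts. Its part in the sums was not tested. The genes were chosen on the first and the last 2 of these classes, so only the cells with 1 Cd4 UMI were outside the choice. They lay between the others in both libraries, and in each wild-type lane.

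**Figure D4:**
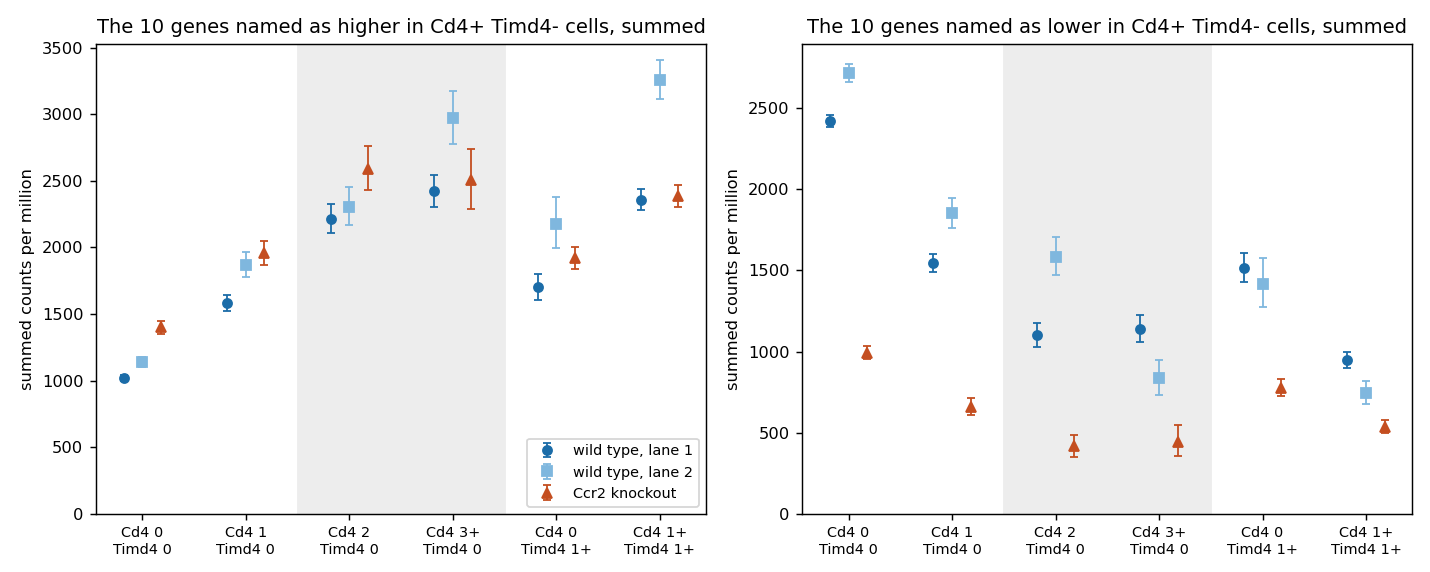
Summed CPM (y axis) of the 10 genes named as higher (left) and the 10 named as lower (right) in the Cd4+ Timd4- cells, by Cd4 and Timd4 UMIs per cell (x axis), with Cd4+ Timd4- cells shaded and bars giving 95% Poisson intervals. Cells with 1 Cd4 UMI lie between those with 0 and those with 2 in each lane and library.

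Single cells overlapped widely. Of the 10 higher genes a Cd4+ Timd4- cell of wild type held a median of 5 (range 0 to 10) and a matched double-negative cell 3 (0 to 10). In the knockout the medians were 4 and 2. No UMI of any of the 10 was found in 1.02% of Cd4+ Timd4- and 9.83% of double-negative cells of wild type, and in 3.95% and 20.3% of those of the knockout. The gene levels thus described groups of cells and did not separate them cell by cell.

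Subsets marked by single genes were found in varying shares. The eosinophil-attracting chemokine gene Ccl24 was detected in 25.8% of wild-type Cd4+ Timd4- cells against 13.9% of double-negative cells, with intervals that did not overlap (20.9% to 31.2% and 10.2% to 18.4%), and in 19.2% against 13.6% in the knockout, with intervals that did. At least 2 of Thbs1, Plaur and Vwa1 were detected in 19.7% against 12.5% in wild type and in 49.2% against 31.1% in the knockout. Il10, the anti-inflammatory cytokine gene, was detected in 9.83% against 10.5% in wild type and in 16.4% against 12.4% in the knockout. Its summed level was 22.2 against 23.1 CPM in wild type and 112 against 55.9 CPM in the knockout.

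The next question was what set the Cd4+ Timd4- cells apart from macrophages with at least 1 UMI of both genes (double-positive cells). Matching gave 251 pairs in wild type and 177 in the knockout. Of 3198 genes 0 were higher in both libraries (0%) and 2 were lower (0.0625%), Tspan33 and Cd163. Taken alone, wild type had 29 genes higher and 35 lower and the knockout 115 and 88. The log2 ratios had a standard deviation over genes of 0.22 in wild type and 0.31 in the knockout, against 0.32 and 0.42 for the comparison with double-negative cells. Both comparisons use the same Cd4+ Timd4- cells and so are not independent of each other.

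Cd163 (chromosome 6, 124304656 to 124330527) had 23.2 CPM in lane 1 and 22.0 CPM in lane 2 of the paired Cd4+ Timd4- cells and 90.9 CPM in the knockout, against 53.7, 44.0 and 140 CPM in double-positive cells. Its log2 ratio was -1.12 in wild type (-1.71 to -0.61) and -0.62 in the knockout (-1.15 to -0.10). In the knockout the ratio turned to 0.88 with C1q at 1% of UMIs or more, to 0.17 with the cells of 1 Cd4 UMI added and to 0.22 against cells with at least 2 Timd4 UMIs. Tspan33, a tetraspanin gene (chromosome 6, 29694222 to 29718559), had 17.6, 16.9 and 38.4 CPM, against 34.4, 28.8 and 71.7 CPM, with log2 ratios of -0.87 and -0.88. Over 19 alternative settings Cd163 passed in 6, was under the minimum of UMIs in 4 and was lower in both libraries in 16. Tspan33 passed in 7, was under the minimum in 9 and was lower in both libraries in 19.

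**Figure D5:**
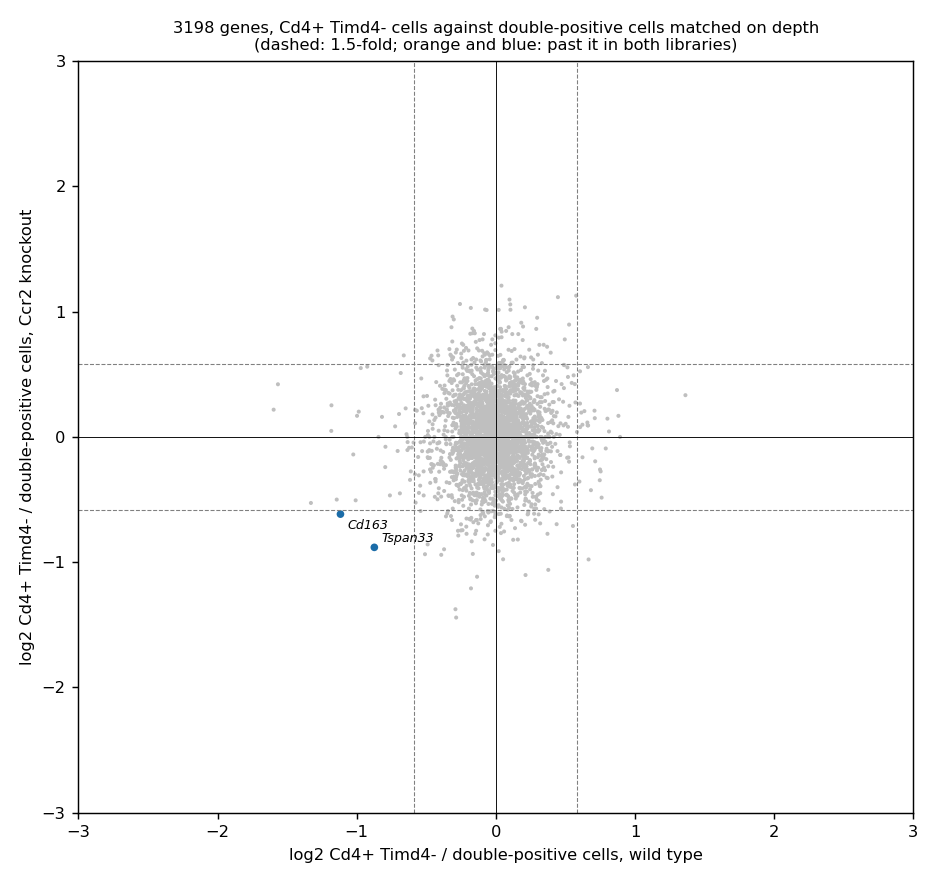
Each point is 1 of 3198 genes, with the log2 ratio of Cd4+ Timd4- to double-positive cells in wild type (x axis) and in the Ccr2 knockout (y axis), on the axes used for the double-negative cells. Cd163 and Tspan33 (blue) are past 1.5-fold in both libraries and no gene is at the upper right.

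The 75 genes that were higher than in double-negative cells had median log2 ratios of -0.01 in wild type and 0.05 in the knockout against double-positive cells, on shared Cd4+ Timd4- cells. In wild type 4 of them were at least 1.5-fold lower and 3 higher, and in the knockout 0 and 6. Acp5 had 1073 CPM in the paired Cd4+ Timd4- cells and 1073 CPM in double-positive cells of wild type, and 748 and 743 CPM in the knockout. Wnt4 had 226 and 284 CPM (log2 -0.33) and 346 and 360 CPM (-0.06). Gpx3 was lower in wild type, at 130 and 234 CPM (-0.84), but not in the knockout, at 220 and 220 CPM. H2-M2 showed the same: 76.0 and 156 CPM in wild type (-1.02), 136 and 150 CPM in the knockout (-0.14). Pla2g2d, a secreted phospholipase named here after its values were seen, had 275 and 624 CPM in wild type (-1.18) and 479 and 463 CPM in the knockout (0.05).

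Among lists, growth and matrix factors had medians of 0.01 and -0.06 against double-positive cells, lysosome and cathepsin genes -0.09 and 0.03, and MHC class II 0.00 and -0.03, beside -0.01 and 0.00 over all genes. Cd163 of the resident and scavenger list was the 1 list gene past 1.5-fold in both libraries. Immediate-early genes were above 0 in both libraries for 14 of 19, where 23.9% of all genes were, with medians of 0.31 in wild type and 0.04 in the knockout. Dusp2, a phosphatase gene of that list, had 1.36 and 0.33. Ribosomal protein genes took 16.7% of UMIs against 15.9% in wild type and 10.8% against 11.1% in the knockout, a smaller gap than with the double-negative cells. Ccr2 was at 120 CPM against 47.9 CPM in wild type, and a Ccr2 or Plac8 UMI was found in 39.8% of the Cd4+ Timd4- and 33.1% of the double-positive cells there. In the knockout the order was the other way, at 4.52% (1.97% to 8.71%) and 9.04% (5.26% to 14.3%), with intervals that overlapped. Ccr2 is deleted there, so those shares rest almost wholly on Plac8 and are not the measure read in wild type.

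To place the Cd4+ Timd4- cells between the other kinds without reading genes in the cells that chose them, genes were chosen in 1 library and read in the other. In wild type 217 of 3129 genes were at least 1.5-fold higher in double-positive than in double-negative cells. In the knockout 173 of these 217 were higher in Cd4+ Timd4- than in double-negative cells, where 57.6% of all genes were, and 127 were lower than in double-positive cells, where 50.7% of all genes were. The median step was 0.42 from double-negative to Cd4+ Timd4- cells and 0.05 from there to double-positive cells. Of 323 genes chosen in the knockout, 264 were higher in the Cd4+ Timd4- cells of wild type than in double-negative cells, where 63.2% of all genes were, and 182 were lower than in double-positive cells, where 52.0% of all genes were. The counts short of the double-positive level were thus near those of all genes. The median steps were 0.31 and 0.03. For the 72 genes chosen in wild type as lower, 60 were below the double-negative level in the knockout, where 42.4% of all genes were, with steps of -0.52 and 0.04. Of the 178 chosen in the knockout as lower, 124 were below it in wild type, where 36.8% of all genes were, with steps of -0.16 and -0.02. By these medians the Cd4+ Timd4- cells lay next to the double-positive cells in both directions of choice. The steps share the Cd4+ Timd4- cells, and unread Timd4 transcripts would also place some double-positive cells among them.

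Cells with Timd4 but no Cd4 UMI give a further point of comparison. The 10 higher genes summed to 1818 CPM in them in wild type and 1920 CPM in the knockout. This was above the cells with neither (1055 and 1400 CPM) and below the Cd4+ Timd4- cells with 2 Cd4 UMIs (2250 and 2592 CPM). Double-positive cells had 2620 and 2384 CPM. Depth was not matched for these sums, and the cells with Timd4 alone had medians of 5471 UMIs in wild type and 2918 UMIs in the knockout. The 10 genes and Alox5ap were chosen on the Cd4+ Timd4- and double-negative cells, so a level between those kinds says little by itself. Alox5ap in the cells with Timd4 alone was 50.5 CPM in wild type and 61.2 CPM in the knockout, against 18.9 and 17.5 CPM in the Cd4+ Timd4- cells.

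The last comparison was between the Cd4+ Timd4- cells of the knockout and of wild type. Matching on depth gave 115 pairs (median 3809 and 3971 UMIs). Of 2590 genes 443 were at least 1.5-fold higher (17.1%) and 385 lower (14.9%) in the knockout, with a standard deviation of log2 ratios over genes of 0.64. Between all Cd4+ Timd4- cells of the wild-type lanes, 193 in lane 1 and 102 in lane 2, it was 0.38, with 15 genes higher and 309 lower in lane 2. Neither the lane ratios nor any ratio of the other gated cells was matched on depth, so they are not like for like with the 115 pairs. Between the other gated cells of the libraries it was 0.75, and for 1900 of the 2590 genes their log2 ratio lay within 0.5 of that of the Cd4+ Timd4- cells. Of the 443 higher genes 337 were also at least 1.5-fold higher in the other gated cells, and of the 385 lower genes 265 were also lower there, while 18 and 26 had the opposite sign. None of these differences can be told apart from source, library or handling of the cells.

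All 19 measured immediate-early genes, which cells switch on within minutes of a stimulus or of handling, were higher in the knockout, with a list median of 1.39. Egr1 had 1557 against 254 CPM (log2 2.61), and in the other gated cells its ratio was 3.10. Heat shock genes went the other way: 6 of 10 were lower, with a median of -1.03, and Hspa1a had 213 against 763 CPM. Of 15 inflammatory genes 8 were higher, among them Il1b, Tnf and Cxcl2, and 3 were lower, Ccl8, Ccl12 and Ccl24. Of 12 growth and matrix factor genes 10 were higher, with a median of 0.91. Of 7 monocyte-linked genes 5 were lower, with a median of -0.59, and of 7 MHC class II genes H2-Ab1 and H2-DMa were lower. Over all 2590 genes 17.1% were higher and 14.9% lower, so the MHC class II count says little. Ccl24 had 116 against 249 CPM in the Cd4+ Timd4- cells (-1.09) but a ratio of 0.80 in the other gated cells, which were not matched on depth.

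The largest ratios upward were those of Bmp2, a bone morphogenetic protein (112 against 4.41 CPM, on 50 and 2 UMIs, log2 4.38 with an interval of 2.74 to 7.75), and Hbb-bs, a globin gene of red cells (295 against 15.4 CPM). Hbb-bs had a log2 ratio of 4.17, and one of 5.65 in the other gated cells. Vwa1, a matrix protein gene, followed at 3.05, then Egr1, the processed pseudogene Gm10263, whose reads may belong to its parent gene, Mir142hg, Erdr1 and Kdm6b, a histone demethylase gene, at 2.38. Downward, Crip1 had -1.97, Nme1 -1.90, Pin4 -1.89, Uqcrb -1.87, Rpp21 -1.85, Hspa1a -1.84, Psmb7 -1.80 and Ndufab1 -1.78. Uqcrb and Ndufab1 encode subunits of the mitochondrial respiratory chain and Psmb7 a proteasome subunit.

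Of the 75 genes that were higher than in double-negative cells, 69 were measured between genotypes. In the knockout 20 of the 69 were higher and 0 lower, where 17.1% and 14.9% of all 2590 genes were. Their median log2 ratio was 0.28. Those higher in the knockout included Adamdec1, Pgf, Thbs1, Tnfaip2, Cd274 and Pecam1. The 10 named by rank differed less. In the depth-matched cells Gas1 had 101 CPM in the knockout and 97.0 CPM in wild type (log2 0.05), Wnt4 345 and 342 CPM (0.01), Olfml3 110 and 112 CPM (-0.04) and Gpx3 226 and 174 CPM (0.37). Of the 10, none passed 1.5-fold, and the ratios ran from -0.57 for Ecm1 to 0.57 for Adgrl3. Of the 30 genes that were lower than in double-negative cells, 18 were measured between genotypes. In the knockout 10 of the 18 were higher and 3 lower, with a median log2 ratio of 0.65. Of the 10 lower genes named by rank, Crip1 (-1.97), Vim (-1.63) and Tmsb10 (-1.26) were lower in the knockout. The rest were under the minimum of UMIs and so were not measured here, several on fewer than 20 UMIs per group. Among these, Lgals1 had -0.94, Emp3 -0.74 and Alox5ap 0.33. Klf10 had 3.01 (interval 1.22 to 6.42, on 2 wild-type UMIs), Timp2 1.82, Lyl1 1.72 and Arl5c 1.43.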

How the data were processed

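The values are raw UMI counts in whole numbers, 1 matrix per genotype, made by the authors with Cell Ranger 3.0.1 on mm10, per the submitters' processing notes, from 10x 3′ v2 libraries, per the labels. Annotation and cell calling are not given in the sources used here. A 3′ method counts transcript ends, so paralogues and pseudogenes with near-identical ends may share reads.

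From these counts, cells were gated as described, paired on UMI totals by optimal assignment (scipy 1.17.1, within 0.1 log2 units, library and lane) and summed. The 8 gate genes were left out of totals and rankings. Doublets scored with Scrublet (scanpy 1.11.5) were removed in an alternative only. Scrublet's own threshold marked 0 and 6 cells in the wild-type lanes and 6 in the knockout, so the top scores, 0.8% per 1000 cells, were taken: 11 wild-type and 6 knockout Cd4+ Timd4- cells. The ratio step was tested on simulated data. Of 490 listed symbols 477 were in the files.

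Named were the 10 highest and 10 lowest genes against each comparator by the smaller log2 ratio of the 2 libraries, the 8 highest and 8 lowest between genotypes, list genes, and list genes past 1.5-fold in opposite directions. The cells and lists were chosen with earlier results of these data known. Alternatives covered matching, depth, gates, gene minimum, pseudocount, scaling, lanes and doublets. Leaving out Ccr2 or Plac8 cells and weighting by depth bins of 0.25 log2 units were chosen after seeing the data.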

Additional observations from a re-analysis of the deposited data

Results flagged for a closer look

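In the comparison of Cd4+ Timd4- with double-negative cells, 2 listed genes passed 1.5-fold in opposite directions in the libraries. Rsad2, an interferon-induced antiviral gene, had a log2 ratio of -0.73 in wild type (36.8 against 61.7 CPM) and 1.04 in the knockout (163 against 78.7 CPM). Tnf, the gene of tumour necrosis factor, had 0.59 in wild type (37.3 against 24.5 CPM) and -0.63 in the knockout (117 against 182 CPM). The difference between the libraries was not tested for either gene.

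Cells outside the macrophage gate also met the Cd4 and Timd4 rule. Among cells without Cd3 UMIs whose C1q share was below 0.5%, 17 of 372 in wild type (4.57%) and 12 of 386 in the knockout (3.11%) held at least 2 Cd4 UMIs and no Timd4 UMI. A count of 0 would have allowed 0.806% and 0.777%.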

How the results depend on the processing

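No paired analysis was possible because each genotype has 1 library and the labels give no shared replicate numbers. Against double-negative cells, the 75 higher genes became 31 with C1q at 1% of UMIs or more, 170 and 49 with gene minimums of 20 and 100 UMIs, 6 at 2-fold and 44 without Ccr2 or Plac8 cells. The 30 lower genes became 55 without matching, 46 after thinning to 1500 UMIs, 6 with C1q at 1%, 14 with mitochondrial UMIs at 5% or less, 57 and 18 with minimums of 20 and 100 UMIs and 7 at 2-fold. In the knockout Arl5c turned to 0.41 with C1q at 1% and to 1.17 with at least 3 Cd4 UMIs, and Ecm1 to -0.15 with the latter. The cause was not tested. Weighting by depth bins gave 81 higher and 32 lower genes, 51 and 22 of them among the 75 and 30.

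Against double-positive cells, the 0 higher and 2 lower genes became 4 and 4 without matching, 1 and 7 after thinning, 5 and 9 with cells of 1 Cd4 UMI added, 2 and 0 with at least 3 Cd4 UMIs, 18 and 26 at 20 UMIs, 2 and 6 without cells holding T cell transcripts, 2 and 4 in lane 2 alone, 2 and 5 against cells with at least 2 Cd4 UMIs and 3 and 5 against cells with at least 2 Timd4 UMIs. Higher genes numbered 2 with mitochondrial UMIs at 5%, 1 without doublets, with median-of-ratios scaling or with depth bins, and 3 without Ccr2 or Plac8 cells. Lower genes numbered 1 at 100 UMIs or with a pseudocount of 10 CPM, and 0 at 2-fold. Cd163 in the knockout turned to 0.88, 0.17 and 0.22 under the settings named with it.

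Between genotypes, the 443 higher and 385 lower genes became 1398 and 937 without matching, 130 and 134 with C1q at 1%, 744 and 578 with cells of 1 Cd4 UMI added, 153 and 158 with at least 3 Cd4 UMIs, 1047 and 814 at 20 UMIs, 211 and 234 at 100 UMIs, and 169 and 111 at 2-fold. The share of genes with the Cd4+ Timd4- cells between the other kinds was 43.3% for higher genes chosen in wild type (31.2% without matching, 28.9% at 20 UMIs), 44.0% for higher genes chosen in the knockout (32.6% at 20 and 54.5% at 100 UMIs) and 38.2% for lower genes chosen in the knockout (24.3% without matching, 23.4% at 20 and 54.3% at 100 UMIs).

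The Cd4+ Timd4- share of gated cells was 2.10% and 4.78% in wild type and knockout after thinning to 1500 UMIs, 1.49% and 2.49% at 1000 UMIs, 26.6% and 24.5% with 1 Cd4 UMI enough, 4.57% and 2.499% with at least 3, and 12.5% in lane 2. Depth limits these shares and the calls of genes with few UMIs.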
